A study of Rattus norvegicus with 8 samples.

Results

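Described here are genes of sterol synthesis, of the control of the transcription factor SREBP2, and of sterol transport and storage, in a rat thyroid cell line given iodide. They were chosen by gene symbol, from their known place in the pathway, but with earlier results of these data known. Each gene was represented by its brightest probe set. Of 29 listed genes, 27 had a named probe set, and all 27 passed the filter on dim probe sets; in all, the arrays held named probe sets for 14217 genes, of which 10047 were tested. Hmgcs1 and Npc1 were not analysed here. FRTL-5, here as its sub-clone SB5, grows from follicular cells of the rat thyroid and needs TSH. One group of cells stably expressed the L629F mutant of the human TSH receptor, which signals without hormone, and the other the wild type human receptor. Cells of each line received either 1 mM sodium iodide or the same concentration of sodium chloride as an isotonic control, and all 4 groups were grown with 5 mU/ml bovine TSH. Each group (L629F with iodide, L629F with chloride, wild type with iodide and wild type with chloride) was measured on 2 single-colour arrays. The study used the mutant line as a model of thyroid tissue that works without TSH and asked how iodide changes its transcripts. The labels give 1 line per receptor, so receptor and line cannot be told apart. They give no duration of treatment and do not say whether replicates were separate cultures. The p-values therefore measure only the spread between these samples, and that spread may be technical.

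Cholesterol is built from acetyl-CoA through mevalonate, isoprenoid diphosphates, squalene and lanosterol. When sterols are scarce in the membrane of the endoplasmic reticulum, the escort protein SCAP carries SREBP2 to the Golgi, where proteases release a fragment that enters the nucleus and activates genes of the pathway. When sterols are plentiful, INSIG proteins hold SCAP and SREBP2 back. Thyroid cells also use the isoprenoid branch of the pathway, for prenylated proteins and for dolichol, a carrier lipid of protein glycosylation.

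Values are MAS5 signals, a linear brightness of each probe set after the authors' scaling, and signals of different probe sets are not compared. Changes are on the scale log2(signal + 35.3), which understates those of dim genes. Within a group, log2 signals correlated across genes at 0.971 to 0.981. Median signals ran from 138 to 147 on the L629F arrays and from 118 to 127 on the wild type arrays. GAPDH probe sets at the 3′ and 5′ ends give a ratio that goes up as RNA breaks down. It averaged 2.32 ± 0.716 on iodide and 1.62 ± 0.397 on chloride arrays (SD, n = 4 each), and was highest on wild type iodide replicate 2 (3.13) and L629F iodide replicate 2 (2.49). Of 10 measured markers of thyroid follicular cells 8 passed the filter, among them Tg, Pax8, Nkx2-1, Foxe1 and Slc5a5. None of 7 leucocyte markers passed, against 2 of 5 for fibroblasts, 1 of 4 for endothelium and 2 of 4 for C cells. The summed signal of the thyroid markers ran from 45200 to 56535 on iodide and from 48866 to 55747 on chloride arrays. Of these markers, Slc5a5, the iodide transporter, fell on average over both lines (-1.02 ± 0.21, SE, adjusted p = 0.0268) and Hhex, a thyroid transcription factor, rose (0.38 ± 0.09, adjusted p = 0.0438). The sums of the other lists ran from 184 to 328 and from 144 to 235 (leucocytes), from 309 to 455 and from 271 to 380 (fibroblasts), from 149 to 437 and from 271 to 374 (endothelium), and from 387 to 508 and from 294 to 569 (C cells), each list's range on iodide arrays being given before that on chloride arrays. The part of RNA quality and of other cells in the results below was not tested beyond the values given there.

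With iodide, most of the sterol genes had lower mean signals, and a few passed the test. On average over both lines, 4 of the 27 genes fell and none rose at an adjusted p under 0.05, where 1.08% of all genes tested were lower and 0.518% higher. Those that fell were Fdps and Lss, enzymes of the isoprenoid and the sterol ring steps, Acat2, the cytosolic thiolase at the head of the pathway, and Insig1, one of the proteins that retain SCAP. The mean change was negative for 25 of 27, with a median of -0.27 on the log2 scale, against 47.8% of all genes and a median of 0.01. At an unadjusted p under 0.05, 15 of the 27 were lower and none higher, where 7.32% of all genes were lower. RNA of all cells in a culture was measured together, so fewer expressing cells and less RNA per cell cannot be told apart.

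The same count in fits that each left out 1 array ran from 0 to 5. None passed without wild type chloride replicate 2. Only Fdps passed without wild type chloride replicate 1 or L629F iodide replicate 1. Without L629F chloride replicate 1 or L629F iodide replicate 2 the genes past the threshold were Acat2 and Fdps, and without L629F chloride replicate 2 they were Fdps and Insig1. None passed without the intensity trend in the variance (18 of all genes tested did). With the GAPDH ratio as a covariate 5 passed, the 4 named and Sqle, and 3 passed, Lss being lost, when the pair of arrays with the highest GAPDH ratios was left out.

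For many of the genes the salt groups did not overlap. Both iodide arrays lay below both chloride arrays for 15 of 27 genes in L629F cells, where 18.5% of all genes did, and for 20 of 27 in wild type cells, where 19.6% did. In both lines at once this held for 11 of 27 (6.06% of all genes): Acat2, Aacs, Mvd, Fdps, Lss, Cyp51, Msmo1, Nsdhl, Hsd17b7, Sc5d and Insig1. The 2 arrays of wild type cells with iodide were the lowest of all 8 for 13 of 27 genes (5.85% of all genes). The group mean was lowest in wild type cells with iodide for 19 of 27 genes (25.1% of all genes) and highest in L629F cells with chloride for 16 (25.6% of all genes).

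**Figure D1:**
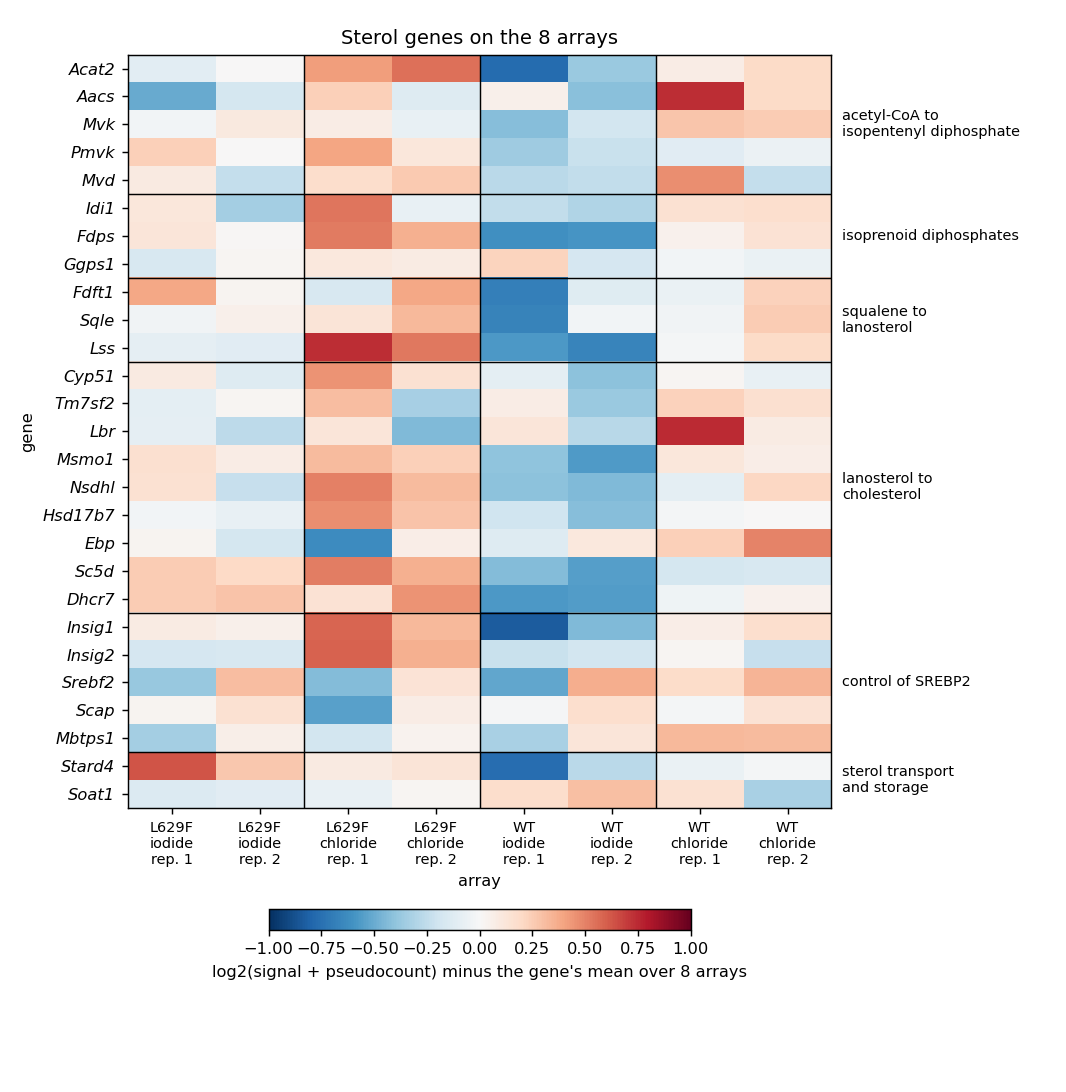
Colour gives, for each of 27 sterol genes (rows, grouped by pathway step) and each array (columns), log2(signal + 35.3) minus the gene's mean over the 8 arrays. The wild type iodide columns are blue (low) for most genes, their group mean being the lowest for 19 of 27 (25.1% of all genes), and the L629F chloride group has the highest mean for 16 (25.6% of all genes).

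The stretches before the start of the 4 genes that fell are shown because genes of this pathway share promoter elements in mammals: NF-Y, a factor that binds the CCAAT box, and Sp1, which binds the GC box, act beside SREBP2 at many of them. Each line gives the 250 bases before the gene's start, 5′ to 3′ on the gene's own strand, from RefSeq's GRCr8 table. Capitals mark matches, on either strand, to CCAAT, to the GC box GGGCGG and to the E-box CACGTG. They lie at chr1:50100590-50100839 (Acat2, plus strand), chr2:176804817-176805066 (Fdps, minus), chr20:12118231-12118480 (Lss, minus) and chr4:8057770-8058019 (Insig1, minus).
Acat2: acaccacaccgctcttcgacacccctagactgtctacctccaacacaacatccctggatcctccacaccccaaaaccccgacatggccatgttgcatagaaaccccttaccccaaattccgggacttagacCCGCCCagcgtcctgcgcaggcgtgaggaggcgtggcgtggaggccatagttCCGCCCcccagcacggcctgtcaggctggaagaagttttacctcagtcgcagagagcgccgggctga
Fdps: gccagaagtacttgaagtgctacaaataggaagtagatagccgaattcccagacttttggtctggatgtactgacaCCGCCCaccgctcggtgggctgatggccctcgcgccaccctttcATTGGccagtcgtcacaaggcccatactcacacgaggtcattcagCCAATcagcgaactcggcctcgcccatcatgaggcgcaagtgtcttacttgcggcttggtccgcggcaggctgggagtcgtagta
Lss: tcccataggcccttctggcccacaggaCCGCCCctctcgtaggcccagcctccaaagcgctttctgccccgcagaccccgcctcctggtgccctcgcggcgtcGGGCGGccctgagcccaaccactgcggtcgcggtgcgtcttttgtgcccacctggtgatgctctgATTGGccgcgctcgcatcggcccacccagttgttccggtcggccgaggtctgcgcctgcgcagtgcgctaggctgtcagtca
Insig1: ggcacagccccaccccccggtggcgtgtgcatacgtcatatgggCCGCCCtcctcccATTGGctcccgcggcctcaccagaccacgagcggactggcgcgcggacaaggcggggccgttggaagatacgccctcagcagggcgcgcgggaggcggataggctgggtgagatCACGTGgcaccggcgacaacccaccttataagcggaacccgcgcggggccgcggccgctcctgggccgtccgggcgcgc

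The Fdps stretch held 2 CCAAT matches, which begin 130 and 85 bases before the start, and 1 GC box. Lss held 1 CCAAT and 2 GC boxes, and Insig1 held 1 CCAAT, 1 GC box and the 1 E-box of the set. Acat2 held 2 GC boxes and no CCAAT. Of the 27 genes, 23 had a promoter in the table (250 bases before to 50 after the start), and CCAAT was present in 17 of them, or 73.9%, against 37.5% of all 33469 promoters. These were all promoters in the table and not only those of genes tested on the arrays. The shares here and below therefore do not compare like sets, and are not shown to be particular to sterol genes. Nsdhl and Mvk had 5 matches each. The GC box was present in 18 of 23 (78.3%, against 33.1%) and the E-box in 3 of 23, against 6.42%. The letters TCACNCCAC, the core of a sterol regulatory element, were found in 0 of the 23 and in 1.12% of all promoters, which says only that these letters are not in these windows. The matched letters are a description and not shown to be bound.

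At the head of the pathway, from acetyl-CoA to isopentenyl diphosphate, Acat2 was the gene that fell. Its signal in L629F cells was 2642 and 2852 with iodide, against 3805 and 4177 with chloride. For wild type cells the values were 1653 and 2193 with iodide and 2998 and 3252 with chloride. The groups did not overlap in either line, and the mean change was -0.62 ± 0.11 (SE, adjusted p = 0.0126). With each array left out in turn it passed 4 of 8 times (adjusted p up to 0.0986).

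The other 4 measured genes of this stretch had negative mean changes that did not pass. Aacs, which makes acetoacetyl-CoA from ketone bodies, was at 219.7 and 285 with iodide against 392 and 296 with chloride in L629F cells, and at 339.8 and 236 with iodide against 566 and 376 with chloride in wild type cells (-0.52 ± 0.19, adjusted p = 0.19). The iodide arrays were thus the lower ones in each line, with wide spread between replicates. Mevalonate kinase, Mvk, was at 761 and 831 with iodide against 819 and 736 with chloride in L629F cells, where the groups overlapped, and at 568 and 679 with iodide against 949 and 931 with chloride in wild type cells, where they did not. The kinase that follows, Pmvk, was at 577 and 486 with iodide against 646 and 527 with chloride in L629F cells and at 372 and 409 with iodide against 446 and 462 with chloride in wild type cells (-0.17 ± 0.14, adjusted p = 0.618). The decarboxylase Mvd was at 464 and 363 with iodide against 496 and 528 with chloride in L629F cells and at 355 and 362 with iodide against 613 and 364 with chloride in wild type cells (-0.33 ± 0.17, adjusted p = 0.382). One of its wild type chloride arrays thus lay just above the iodide arrays and the other far above.

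Of the isoprenoid enzymes, Fdps, which makes farnesyl diphosphate, the last step shared by sterols and prenylated proteins, fell with the smallest adjusted p of the 27. In L629F cells the signal was 7177 and 6665 with iodide, against 9483 and 8452 with chloride. It was 4294 and 4368 with iodide in wild type cells, against 6790.3 and 7303 with chloride. The iodide signal was thus 77.2% of the chloride signal in L629F cells and 61.5% in wild type cells, and the groups did not overlap in either line. The mean change was -0.53 ± 0.09 (adjusted p = 0.0076). It held in 7 of the 8 fits that left out an array (adjusted p up to 0.0619, without wild type chloride replicate 2).

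Idi1, the isomerase before Fdps, was at 1549 and 1125 with iodide and 2084 and 1355 with chloride in L629F cells. In wild type cells it was at 1199 and 1157 with iodide and 1594 and 1612 with chloride. The groups overlapped in the L629F line alone, and the mean change did not pass (-0.39 ± 0.14, adjusted p = 0.205). A dimmer Idi1 probe set changed by 0.25 in L629F and by -0.31 in wild type cells. Ggps1, which leads from farnesyl diphosphate to geranylgeranyl diphosphate and so to protein prenylation, had a mean change of -0.05 ± 0.16 (adjusted p = 0.92). Its signals were 280.5 and 322 with iodide against 345 and 337 with chloride in L629F cells, and 375 and 278 with iodide against 310.5 and 302 with chloride in wild type cells. Its 2 dimmer probe sets changed by -0.10 and -0.46.

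**Figure D2:**
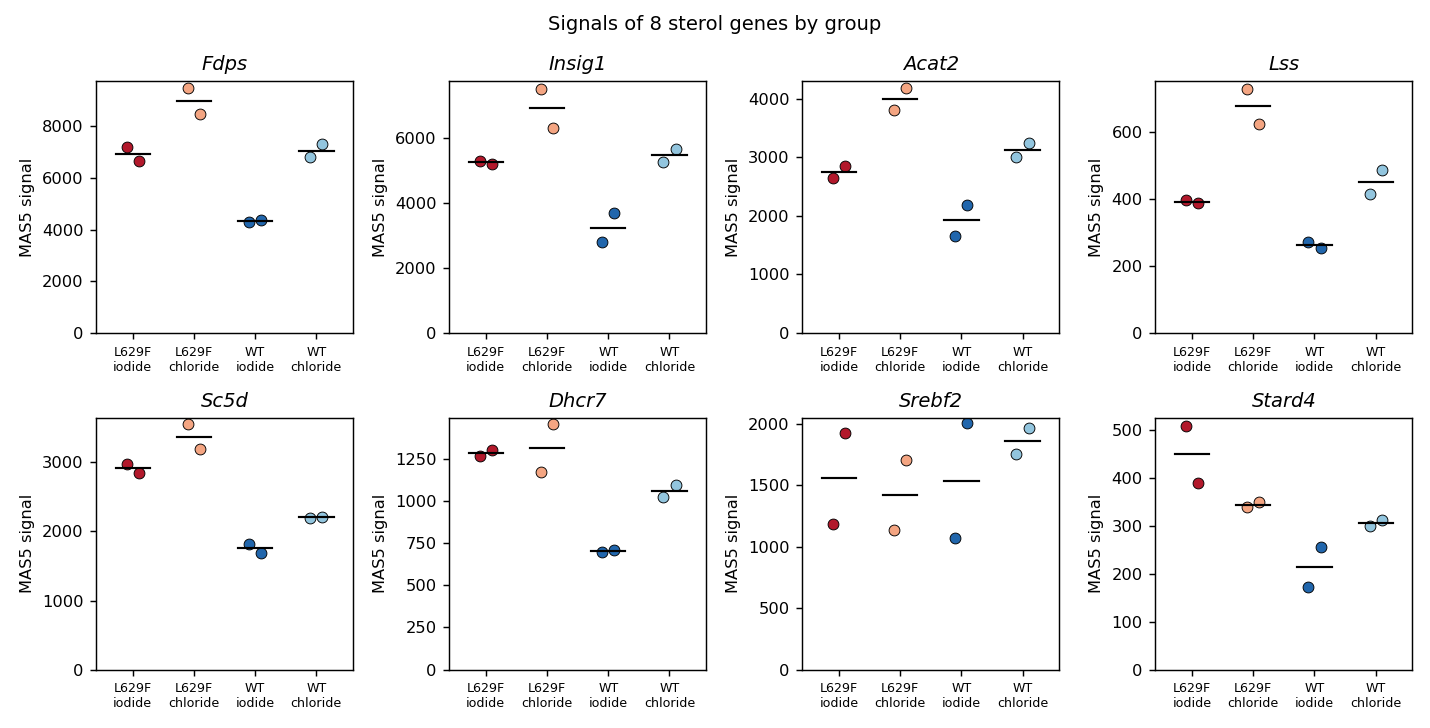
Points are the MAS5 signals of 8 sterol genes on each array and lines are group means; each vertical axis starts at 0. For Fdps, Insig1, Acat2 and Lss both iodide arrays lie below both chloride arrays in each line, whereas the 2 arrays of a group lie far apart for Srebf2 in 3 of the 4 groups.

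In the steps from farnesyl diphosphate to lanosterol, Lss, the cyclase that forms the sterol ring system, fell. It stood at 396 and 388 in L629F cells with iodide, against 729 and 624 with chloride. In the wild type line it stood at 272 and 255 with iodide, against 416 and 488 with chloride. The iodide signal was 57.9% of the chloride signal in L629F cells and 58.4% in wild type cells, and the mean change was -0.72 ± 0.14 (adjusted p = 0.02). Its second probe set, which was dimmer, changed by -1.30 in L629F and by -1.35 in wild type cells. With each array left out in turn, Lss passed only without wild type iodide replicate 1 (adjusted p up to 0.12 in the 8 fits).

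Sqle, squalene epoxidase, a rate-limiting oxygenase of the pathway, was at 6246 and 6637 with iodide and 7009 and 8035 with chloride in L629F cells, and at 4016 and 6289.6 with iodide and 6252 and 7655 with chloride in wild type cells. The wild type iodide arrays lay far apart, and the groups of that line overlapped. The change was -0.34 ± 0.13 (adjusted p = 0.219). Fdft1, squalene synthase, had a mean change of -0.20 ± 0.17 (adjusted p = 0.653), with 817 and 627 with iodide against 547 and 817 with chloride in L629F cells, where the groups overlapped, and 369 and 564 with iodide against 586 and 726 with chloride in wild type cells.

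Between lanosterol and cholesterol, 9 of 9 measured enzymes had a negative mean change (median -0.27, range -0.47 to -0.09) and none passed. Nearest to the threshold were Msmo1, the oxidase that removes methyl groups from the ring (-0.37 ± 0.09, adjusted p = 0.053), and Nsdhl, a dehydrogenase of the same steps (-0.47 ± 0.12, adjusted p = 0.0702). Msmo1 was at 5346 and 5034 with iodide against 5978 and 5673 with chloride in L629F cells, and at 3616 and 3221 with iodide against 5190.0 and 5027 with chloride in wild type cells. The iodide arrays were the lower ones in both lines. Nsdhl was at 2259 and 1729 with iodide against 2898 and 2536 with chloride in L629F cells and at 1519 and 1482 with iodide against 1896 and 2347 with chloride in wild type cells, again with no overlap. Hsd17b7, the ketone reductase that acts with them, had a change of -0.37 ± 0.13 (adjusted p = 0.17), with 609 and 589.6 with iodide against 874 and 766 with chloride in L629F cells and 538 and 454 with iodide against 614 and 625 with chloride in wild type cells.

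Cyp51, the lanosterol demethylase, was at 6219 and 5347 with iodide and 8019 and 6503 with chloride in L629F cells, and at 5474 and 4401 with iodide and 5924 and 5548 with chloride in wild type cells (-0.27 ± 0.11, adjusted p = 0.229). The groups did not overlap in either line, but on this probe set they came close in both. A dimmer Cyp51 probe set changed by -0.32 in L629F and by -0.60 in wild type cells (-0.46 on average). On it the groups lay further apart: the higher iodide and lower chloride arrays gave 2194 and 2546 in L629F cells and 1477 and 1892 in wild type cells. The desaturase Sc5d had a change of -0.27 ± 0.10 (adjusted p = 0.188) on its brightest probe set, which gave 2974 and 2847 with iodide against 3551 and 3193 with chloride in L629F cells and 1824 and 1682 with iodide against 2197 and 2215 with chloride in wild type cells. Its 2 dimmer probe sets changed by -0.57 and -0.47. Dhcr7, the last reductase of one branch, had a mean change of -0.30 ± 0.11 (adjusted p = 0.225). It was at 1268 and 1298 with iodide against 1172 and 1454 with chloride in L629F cells and at 698 and 707 with iodide against 1025 and 1091 with chloride in wild type cells, so that the groups were apart in the wild type line alone.

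The other 3 enzymes of these steps had overlapping groups in L629F cells and mean changes that did not pass. Tm7sf2, a sterol reductase, was at 911 and 992 with iodide against 1221 and 770.2 with chloride in L629F cells, and at 1029 and 749.7 with iodide against 1155 and 1099 with chloride in wild type cells (-0.19 ± 0.15, adjusted p = 0.615). Lbr, a protein of the nuclear envelope with the same reductase activity, was at 671 and 591 with iodide against 782 and 518 with chloride in L629F cells and at 780.2 and 584 with iodide against 1221 and 758 with chloride in wild type cells (-0.25 ± 0.18, adjusted p = 0.542). The isomerase Ebp was at 765 and 659 with iodide against 472 and 789 with chloride in L629F cells and at 681 and 811 with iodide against 892 and 1071 with chloride in wild type cells (-0.09 ± 0.16, adjusted p = 0.846). In wild type cells both iodide arrays of Tm7sf2 and Ebp, but not of Lbr, lay below the chloride arrays. The changes of Tm7sf2, Lbr and Ebp were -0.35, -0.49 and -0.38 in wild type cells. In L629F cells they were -0.03, -0.02 and 0.20, and none passed in either line.

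Among the genes that control SREBP2, Insig1, itself a target of SREBP2 in mammals, fell. Its signal was 5318 and 5217 in L629F cells with iodide, against 7534 and 6315 with chloride. In wild type cells the arrays gave 2816 and 3691 with iodide, against 5281 and 5674 with chloride. The groups did not overlap in either line (mean change -0.57 ± 0.11, adjusted p = 0.0157), and it was past the threshold in 3 of 8 leave-one-out fits (adjusted p up to 0.11). Insig2, its paralog, whose product also binds SCAP, had a mean change of -0.36 ± 0.14 (adjusted p = 0.204). It was at 428 and 431 with iodide against 747 and 629.4 with chloride in L629F cells, and at 412 and 424 with iodide against 493 and 408 with chloride in wild type cells, where the groups overlapped. A dimmer Insig2 probe set changed by -0.18 in L629F and by 0.12 in wild type cells (-0.03 on average).

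The gene of the transcription factor itself showed no change past the threshold. Srebf2 was at 1185 and 1929 with iodide against 1135 and 1703 with chloride in L629F cells, and at 1069.7 and 2004 with iodide against 1758 and 1967 with chloride in wild type cells (-0.11 ± 0.20, adjusted p = 0.847). The 2 wild type iodide arrays spanned the whole range of the gene, so the interval of this change is wide. Replicate 2 gave the higher Srebf2 signal in each of the 4 groups. Scap was at 1162 and 1272 with iodide against 771 and 1199.7 with chloride in L629F cells and at 1126 and 1284 with iodide against 1126 and 1265 with chloride in wild type cells (0.17 ± 0.14, adjusted p = 0.622), while a dimmer Scap probe set changed by -0.36. Mbtps1, the first protease that cuts SREBP2 in the Golgi, was at 840.0 and 1117 with iodide against 939 and 1098 with chloride in L629F cells and at 849 and 1173 with iodide against 1356 and 1344 with chloride in wild type cells (-0.24 ± 0.14, adjusted p = 0.44). Array signals measure the transcript and say nothing of cleavage of the SREBP2 protein.

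The 2 measured genes of sterol transport and storage had mean changes near 0, neither of which passed. Stard4, a cytosolic sterol carrier, was at 509.6 and 390.0 with iodide against 339.5 and 350.5 with chloride in L629F cells, and at 172 and 257 with iodide against 300.3 and 312 with chloride in wild type cells. Iodide arrays thus lay above chloride arrays in the L629F line and below them in the wild type line, and the mean change was -0.07 ± 0.17 (adjusted p = 0.893). Its 2 dimmer probe sets changed by 0.10 and -0.24. Soat1, which esterifies cholesterol for storage, had a mean change of 0.11 ± 0.13 (adjusted p = 0.732). It was at 966 and 982 with iodide against 1011 and 1079 with chloride in L629F cells and at 1203 and 1315 with iodide against 1184 and 841 with chloride in wild type cells.

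Of the 27 genes 14 had further probe sets, 18 in all, of which 16 passed the filter. The sign of the mean change was the same as on the brightest probe set for all of these but 1 each of Scap, Stard4 and Soat1.

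**Figure D3:**
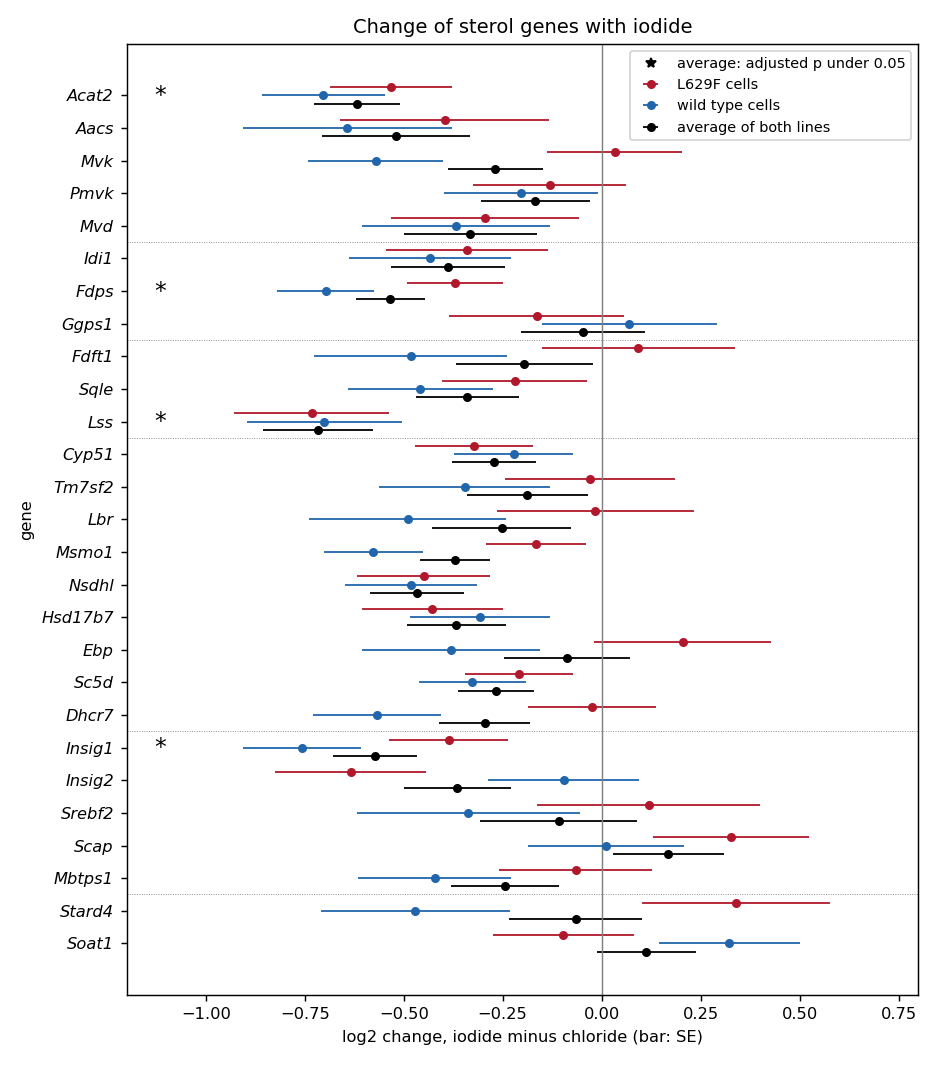
Log2 change with iodide (iodide minus chloride) of 27 sterol genes in order of pathway step, in L629F cells (red), wild type cells (blue) and on average (black), with SE bars. Stars mark Acat2, Fdps, Lss and Insig1, which passed on average; most points lie left of 0.

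A second list held sterol genes of uptake, transport, breakdown of pathway proteins and isoprenoid branches. Of its 29 genes 19 were tested. On average over both lines 2 fell and none rose, where 1.08% of all genes were lower, and the median change was 0.02. Scarb1, a receptor for selective uptake of lipoprotein cholesterol, fell. It was at 1185 and 1389 with iodide against 1581 and 1910.3 with chloride in L629F cells, and at 902 and 1003 with iodide against 1842 and 1808 with chloride in wild type cells (-0.67 ± 0.11, adjusted p = 0.00952). Mylip, a ubiquitin ligase, also fell (-0.70 ± 0.14, adjusted p = 0.0267), with 1879.9 and 1932 with iodide against 2676 and 2933 with chloride in L629F cells and 1341 and 932 with iodide against 2480.0 and 1670.3 with chloride in wild type cells. Neither overlapped in either line. Acat1, the mitochondrial thiolase, and Tmem97, which binds the NPC1 protein, gave -0.47 ± 0.12 (adjusted p = 0.0609) and 0.32 ± 0.11 (adjusted p = 0.164). A dimmer probe set changed by 0.34 for Acat1 and by 0.03 for Tmem97, and a dimmer one of Scarb1 by -0.81.

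Within the lines, the question was whether iodide acts on these genes in cells with the autonomous receptor as it does in cells with the wild type one. In L629F cells none of the 27 genes passed, where 0.0796% of all genes were lower; at an unadjusted limma p under 0.05, 7 were lower and none higher (4.45% of all genes were lower). Their median change was -0.17, and 21 of 27 were negative, against a median of 0.01 and 48.7% of all genes. The most negative were Lss (-0.73 ± 0.20), Insig2 (-0.63 ± 0.19) and Acat2 (-0.53 ± 0.15), with adjusted p of 0.269, 0.347 and 0.325. The dimmer Insig2 probe set changed by -0.18 in L629F cells, and its salt groups overlapped there. In wild type cells 2 genes fell, Fdps (-0.70 ± 0.12, adjusted p = 0.0267) and Insig1 (-0.76 ± 0.15, adjusted p = 0.0448), where 0.378% of all genes were lower. At an unadjusted limma p under 0.05, 12 were lower and none higher in this line (6.31% of all genes were lower). The median change was -0.43, and 24 of 27 were negative, against a median of 0.02 and 46.9% of all genes. With each array left out in turn Fdps passed 4 of 8 times (adjusted p up to 0.32) and Insig1 once, without wild type iodide replicate 2 (adjusted p up to 0.396). Fdps was lost whenever a wild type array was left out, and Insig1 in the other 7 fits.

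The difference between the lines' iodide changes (L629F minus wild type) passed for none of the 27 genes and for 0% of all genes tested (limma; 418 of 10047 at an unadjusted p under 0.05). It was positive, a smaller fall or a rise in L629F cells, for 21 of 27 and for 4810 of all 10047 genes. The median was 0.25, against -0.01 for all genes. Of the 27, 4 were positive and none negative at an unadjusted p under 0.05, where 2.16% of all genes were positive. These were Stard4 (0.81 ± 0.34), Mvk (0.60 ± 0.24), Dhcr7 (0.54 ± 0.23) and Msmo1 (0.41 ± 0.18), each with adjusted p = 0.993. Insig2 had the most negative value, -0.54 ± 0.27. A difference between the lines is therefore not shown for any of these genes, and with 2 arrays a group the intervals do not show that the lines respond alike. With each array left out in turn the median of the 27 ran from 0.13, without wild type iodide replicate 1, to 0.28, without L629F iodide replicate 1.

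The receptors were compared under each salt, with the arrays that also enter the iodide comparisons. Under chloride none of the 27 genes passed, where 0.338% of all genes were higher in L629F cells; at an unadjusted limma p under 0.05, 8 were higher and 2 lower, where 7.18% of all genes were higher and 6.44% lower. The smallest adjusted p was that of Sc5d (0.60 ± 0.14, adjusted p = 0.0837), at 3551 and 3193 in L629F cells against 2197 and 2215 in wild type cells. Both L629F arrays lay above both wild type arrays for 14 of 27 genes, where 24.8% of all genes did. The median difference was 0.14, against 0.005 for all genes. Where each array was centred on its own median over every probe set it was -0.02. That scaling moved the median of all genes to -0.15. The 5 most negative differences were those of Ebp (-0.65 ± 0.22, adjusted p = 0.233), Lbr (-0.57 ± 0.25, adjusted p = 0.34), Srebf2 (-0.41 ± 0.28), Aacs (-0.40 ± 0.26) and Mbtps1 (-0.40 ± 0.19), none of which passed.

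Under iodide 3 of 27 genes were higher in L629F cells and none lower, where 0.358% of all genes were higher. Dhcr7 was at 1268 and 1298 in L629F cells, against 698 and 707 in wild type cells (0.84 ± 0.16, adjusted p = 0.0472). Sc5d was at 2974 and 2847 in L629F cells, against 1824 and 1682 in wild type cells (0.72 ± 0.14, adjusted p = 0.0409). Fdps was at 7177 and 6665 in L629F cells, against 4294 and 4368 in wild type cells (0.67 ± 0.12, adjusted p = 0.0355). Both L629F arrays of each lay well above both wild type arrays. Insig1 (0.70 ± 0.15, adjusted p = 0.0579) and Msmo1 (0.60 ± 0.13, adjusted p = 0.0543) came next, and Stard4 had the largest value (0.97 ± 0.24, adjusted p = 0.106). On the dimmer probe sets of Stard4 the lines overlapped, with means of 227.3 in L629F against 222.1 in wild type cells, and 175.0 against 146.1. Both L629F arrays lay above both wild type arrays for 15 of 27 genes, where 19.8% of all genes did. The median difference was 0.26, against -0.01 for all genes.

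None of the 3 calls held in any fit without 1 array (adjusted p from 0.0552 to 0.207), in which 0 members passed, or 1, Insig1, without wild type iodide replicate 2. None passed either with the centring described above, where the median of all genes was -0.19 and that of the 27 was 0.08. The 3 differences stayed positive there, from 0.49 to 0.65. Low signals were higher on every L629F array (25th percentile 40.8 to 43.1, against 29.3 to 31.6 on wild type arrays), and the part of this in the differences was not tested.

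**Figure D4:**
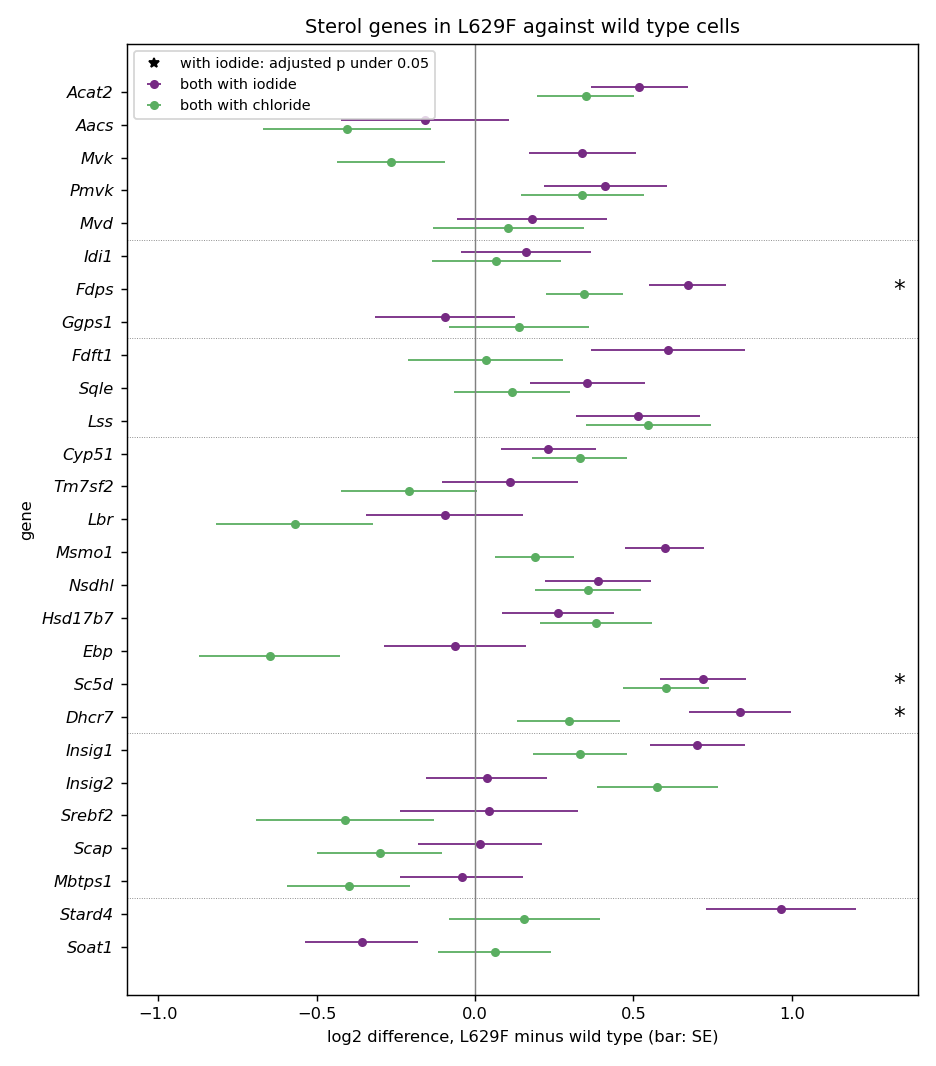
Log2 difference between L629F and wild type cells (L629F minus wild type) of 27 sterol genes, under iodide (purple) and under chloride (green), with SE bars. Stars mark Fdps, Sc5d and Dhcr7, which passed under iodide; no gene passed under chloride.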

How the data were processed

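Labelled cRNA of 8 samples was read on single-colour Affymetrix rat arrays, as the labels' protocols state. Per the submitters' processing notes, the deposited intensities came from MAS5 on a linear scale; the sources used here do not give its version or scaling target. Each array's mean without the lowest and highest 2% was 500.2. Symbols came from the platform annotation, updated through RefSeq's GRCr8 gene table (20764 of 31099 probe sets matched). Probe sets with 1 symbol (20832) were used, and those with several (436) or none (9831) were not. Left out were 57 controls and the 40% of probe sets with the lowest mean log2 signal (below 69.9). The brightest probe set by mean signal stood for each of 10047 genes. Values were log2(signal + 35.3), where 35.3 is the 25th percentile of all signals. limma 3.58.1 in R 4.3.3 fitted the 4 groups together with an intensity trend (4 residual and 9.43 prior degrees of freedom). The 6 comparisons used two-sided tests, and p-values were adjusted over all genes (Benjamini-Hochberg, threshold 0.05). The median SE was 0.20 for 1 line and 0.14 for the average, and the number of arrays limits the precision. The fit was also run on simulated data with noise independent between arrays, and the outcome is not reported here. Such data cannot show how the fit behaves where arrays share a replicate effect. Motifs were searched on both strands of RefSeq promoters. Every member with a probe set was named with its signals; further sterol genes were the 4 of smallest p. Members and lists were chosen with earlier results of these data known. Alternatives changed the pseudocount, filter, scaling, probe set, variance trend, arrays and replicate term. Plots used matplotlib 3.10.9 under Python 3.11.15.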

Additional observations from a re-analysis of the deposited data

Results flagged for a closer look

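For 2 of the 27 genes iodide and chloride arrays lay in opposite order in the lines. The share of all genes with such an order was not counted, so it is not shown to be particular to these genes. Of 10047 genes tested, both iodide arrays were above both chloride arrays for 2029 in L629F and 2377 in wild type cells. They were below for 1856 and 1965. Stard4 was higher with iodide on both L629F arrays and lower on both wild type arrays, and the difference between the lines' changes was 0.81 ± 0.34 (limma adjusted p = 0.993, unadjusted p = 0.0308). Soat1 was lower on both L629F arrays and higher on both wild type arrays, with a difference of -0.42 ± 0.25 (limma adjusted p = 0.993). The test of the difference did not pass for either gene. Dimmer probe sets did not all share the pattern: those of Stard4 changed by 0.33 and -0.57 in L629F cells and by -0.12 and 0.08 in wild type cells, in that order, and that of Soat1 by -0.03 in L629F and by -0.54 in wild type cells.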

How the results depend on the processing

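All 27 genes were tested under each setting, and the number of arrays limits what can be shown. On average over both lines, 4 of the 27 genes fell in the fit reported (161 of all genes changed); without the intensity trend these counts were 0 and 18, all genes without the filter on dim probe sets numbered 92, and with the GAPDH ratio as a covariate 259. The fit reported did not pair samples by replicate number. The 6 correlations of replicate differences between groups ran from 0.04 to 0.23, and 4 were over 0.1. For 8 of the 27 genes replicate 2 differed from replicate 1 in the same direction in all 4 groups. It was higher for Acat2, Sqle, Dhcr7, Srebf2 and Scap and lower for Cyp51, Lbr and Msmo1. The share of all genes that did so was not counted. Whether arrays of the same replicate number share a batch was not tested. With a replicate block 7 of the 27 and 521 of all genes changed on average, 4 of the 27 fell in wild type cells (155 of all genes, against 38 without the block), and L629F exceeded wild type for 1 under chloride (124, against 34) and 6 under iodide (113, against 36). Of the 27, in wild type cells 1 fell with pseudocount 1, with centring on the median of either all or kept probe sets and with probe sets averaged. None fell there without the filter, without the trend or with only the 4 arrays compared. With the GAPDH covariate 4 fell (138 of all genes, against 38 in the fit reported). That covariate gave 1 lower gene (Acat2) in L629F cells (24 of all genes, against 8). It gave 1 (Sc5d) higher in L629F under chloride (134 of all genes, against 34) and 5 under iodide (101, against 36). Under iodide, L629F exceeded wild type for 0 genes without the filter, with centring on all probe sets, without the trend, with only the 4 arrays compared and without the 2 arrays whose GAPDH ratio was highest, and for 5 with quantile scaling. The median there was 0.078 with centring on all probe sets, 0.34 with the mean of probe sets and 0.36 without the 2 arrays, which put the median difference between the lines' iodide changes at 0.32. Under chloride the median became -0.018 with centring on all probe sets. Signs of single mean changes turned for Scap (-0.094) and Soat1 (-0.086) with the mean of probe sets, for Ggps1 (0.083), Tm7sf2 (0.050) and Lbr (0.029) with the GAPDH covariate, and for Ggps1 (0.0062) without the 2 arrays. With each array left out in turn, the ranges were 0 to 5 genes, 38 to 262 of all genes and a median of -0.33 to -0.27 on average; 0 to 2 genes and -0.46 to -0.38 in wild type cells; 0 genes and -0.27 to -0.17 in L629F cells; 0 genes and 0.13 to 0.28 for the difference between lines; 0 genes and 0.14 to 0.21 under chloride; and 0 to 1 and 0.24 to 0.37 under iodide. Mean changes then crossed 0 for Ggps1 (-0.15 to 0.050), Ebp (-0.26 to 0.087), Srebf2 (-0.33 to 0.11), Stard4 (-0.19 to 0.059) and Soat1 (-0.0063 to 0.23). The cause of each shift was not tested. The fit with only 4 arrays was not run for the average and the difference between lines, which need all 8.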
